A study of Homo sapiens with 9 samples.

Results

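The long noncoding RNAs (lncRNAs) described here are those with the most read counts in LNCaP cells during a course of neuregulin-1 (NRG1), a ligand of the receptor HER3. They were chosen by 2 conditions, an lncRNA biotype in the deposited gene table and at least 9000 read counts summed over all 9 libraries. The sum is a measured value, so abundance was used for the choice and is given as a description only. It is not corrected for length, so abundant here means many counts. The conditions held for 112 of the 10128 lncRNAs in a table of 37351 genes. The lncRNAs next to the limit were RP11-567M16.6 and PCBP1-AS1 on the inside, with 9178 and 9190 summed counts, and SNHG17 on the outside with 8955. All 112 passed the filter on low counts.

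LNCaP is an established androgen-responsive human prostate cancer line. The cells had been kept in medium without serum or calcium, and recombinant NRG1 at 15 ng/mL was present for 0, 12 or 24 h. Each time has 3 libraries, labelled biological replicates. The paper states that cells were plated in triplicate, so the replicates may be parallel wells of the same plating. Whether they came from separate experiments is not stated, and the SE and adjusted p measure the spread between these libraries only. RNA was measured by poly(A)-selected mRNA sequencing in bulk. Every group came from the same line. The paper gives the starvation before treatment as a range of hours and does not say that the groups shared it exactly. No library was taken at 12 or 24 h without NRG1, so the ligand and the time in medium without serum and calcium cannot be told apart.

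A library held 47016302 to 60985825 counts, and mitochondrial genes took 5.02% to 6.09% of them. The prostate luminal genes KLK2, KLK3, FOLH1, HOXB13 and TMPRSS2 were all expressed. The fibroblast genes COL1A2 and DCN had 1 and 11 summed counts, the endothelial gene PECAM1 had 5, the leukocyte gene PTPRC had 10, and the basal genes KRT5 and TP63 had 1 and 8. COL1A1, which is also listed as a fibroblast gene, had 11354 counts.

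LncRNAs are transcripts that are not known to encode a protein. Many of the most abundant ones act as the RNA itself: MALAT1 gathers in nuclear speckles, NEAT1 is the scaffold of paraspeckles, and NORAD binds RNA-binding proteins in the cytoplasm. Another group, the small nucleolar RNA (snoRNA) hosts, is transcribed mainly as a carrier: snoRNAs are cut from the introns, and the spliced exons of many hosts are degraded by nonsense-mediated decay when they are translated. Several hosts start with a run of pyrimidines like that of ribosomal protein genes. Still other lncRNAs run antisense to, or divergently from, a protein-coding gene.

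The start sites of the snoRNA hosts are shown because such a pyrimidine run has been described for several hosts. The class itself was set here by gene name. Each line gives 50 bases of RefSeq sequence (build GRCh38.p14), 20 before the RefSeq start and 30 from it on. Capitals mark a C followed by at least 4 pyrimidines that begins within 5 bases of the start. The 7 hosts with such a run come first, and SNHG1 and SNHG3, 2 of the hosts that rose, follow without one.
DANCR: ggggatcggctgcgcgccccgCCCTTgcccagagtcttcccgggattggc
SNHG8: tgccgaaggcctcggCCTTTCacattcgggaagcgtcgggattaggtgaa
SNHG32: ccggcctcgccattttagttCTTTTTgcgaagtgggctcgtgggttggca
SNHG19: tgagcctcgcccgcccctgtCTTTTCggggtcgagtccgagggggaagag
SNHG16: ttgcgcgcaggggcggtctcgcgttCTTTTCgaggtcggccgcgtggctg
SNHG4: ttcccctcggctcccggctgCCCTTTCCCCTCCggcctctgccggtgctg
ZFAS1: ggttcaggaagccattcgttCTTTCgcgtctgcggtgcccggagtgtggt
SNHG1: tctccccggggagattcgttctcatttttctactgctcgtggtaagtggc
SNHG3: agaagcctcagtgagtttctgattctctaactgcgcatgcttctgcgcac
The run was present in 7 of the 13 host windows (53.8%), in 13 of the 63 windows of all abundant lncRNAs (20.6%) and in 4939 of 27305 windows of all RefSeq genes (18.1%). The windows printed lie at chr4:52712374-52712423 (DANCR), chr4:118278742-118278791 (SNHG8), chr6:31834896-31834945 (SNHG32), chr16:2155329-2155378 (SNHG19, minus strand), chr17:76557744-76557793 (SNHG16), chr5:139274081-139274130 (SNHG4), chr20:49278622-49278671 (ZFAS1), chr11:62855856-62855905 (SNHG1, minus strand) and chr1:28505923-28505972 (SNHG3), on the plus strand where no strand is given. The match is a description of the letters near one annotated start. For some hosts the RefSeq start differs from the table's start, by 163 bases for GAS5, 464 for ZFAS1 and 154975 for SNHG14.

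Counts were concentrated in a few genes. All lncRNAs together took 1.39% to 1.56% of the counts of a library, and the 112 abundant ones held 54.2% of all lncRNA counts. Within the 112, the 10 highest held 45.4%. These were MALAT1, SNHG29, NORAD, SNHG14, NEAT1, GAS5, DANCR, COLCA1, SNHG8 and LINC00665, so 5 of the 10 are snoRNA hosts.

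The share of counts in the 112 lncRNAs was 0.846%, 0.790% and 0.781% at 0 h, 0.750%, 0.758% and 0.748% at 12 h, and 0.778%, 0.760% and 0.818% at 24 h. All 12 h libraries lay below all 0 h libraries. The highest shares of their groups were in 0 h replicate 1 and 24 h replicate 3, which were also the highest for all lncRNAs. Among the 112 genes, 0 h replicate 1 was the highest 0 h library for 45, 12 h replicate 2 the highest 12 h library for 50, and 24 h replicates 1 and 3 the highest 24 h library for 44 and 47. Over all genes with at least 9000 counts these 4 libraries were the highest of their group for 28.2%, 35.5%, 32.7% and 32.8%. For the lncRNAs and coding neighbours described here, calls lost without 0 h replicate 1 and 24 h replicate 3 together are given as such. The lncRNA AIRN and the protein lists (paraspeckle, nuclear speckle, snoRNA-binding and nonsense-mediated decay) were not checked in this way.

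**Figure D1:**
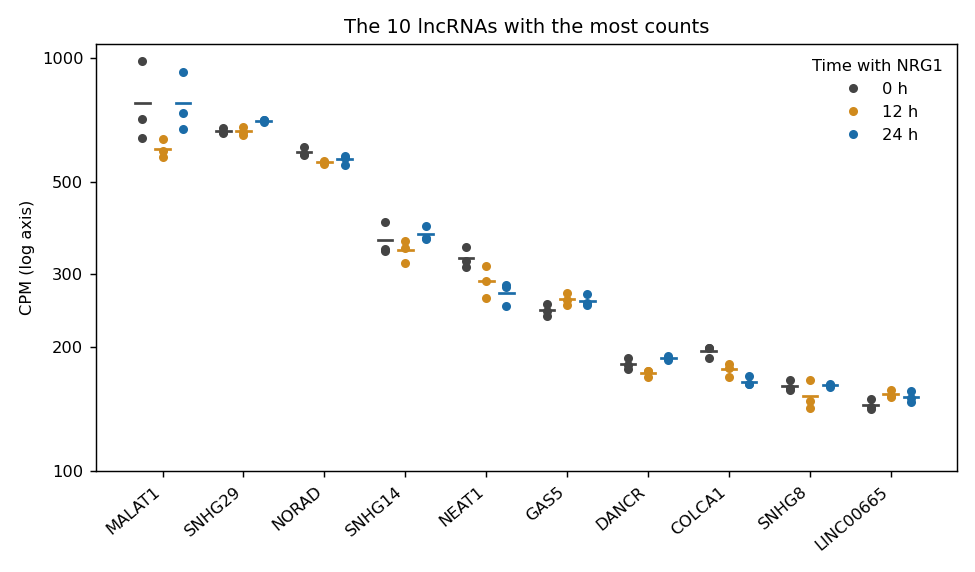
Level of the 10 lncRNAs with the most counts, in CPM (log axis), with 1 point per library, a bar at the mean of each group, and color for the time with NRG1 (0, 12 or 24 h; 3 libraries each). The MALAT1 libraries spread from 574 to 979 CPM and overlap between 0 and 24 h, whereas the NORAD and SNHG29 libraries of a group lie close together.

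Levels are given as CPM, the counts of a gene per 1000000 counts of the library after scaling. MALAT1 was at 979, 710 and 640 CPM at 0 h, at 636, 574 and 596 at 12 h, and at 734, 673 and 922 at 24 h. The 12 h libraries were below all others, but the coefficient of variation between replicates was 23.0% at 0 h and 16.7% at 24 h, each the highest of the 112 genes at that time, against medians of 3.46% and 3.49%. No MALAT1 difference passed the test. The log2 fold change was -0.37 ± 0.19 (SE) at 12 h, with an edgeR adjusted p of 0.263.

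NEAT1 was at 349, 312 and 323 CPM at 0 h, 262, 313 and 289 at 12 h, and 282, 250 and 280 at 24 h. Each 24 h library was below each 0 h library. Counts are per gene and from poly(A)-selected RNA, so the level of any single form of the NEAT1 transcript was not measured. NEAT1 fell by 0.28 on the log2 scale at 24 h (SE 0.08, edgeR adjusted p = 0.0445), a call that was lost in 7 of the 9 fits with 1 library left out: without any single 0 h library, any single 24 h library, or 12 h replicate 3 (adjusted p = 0.0664 to 0.146). It was also lost with a replicate block (adjusted p = 0.131), with no scaling factor (adjusted p = 0.0745) and without 0 h replicate 1 and 24 h replicate 3 together (adjusted p = 0.211). At 12 h the difference of -0.19 did not pass (adjusted p = 0.162), and it passed without 12 h replicate 2 (adjusted p = 0.00971) and with no low-count filter (adjusted p = 4.83e-05).

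Of genes with at least 9000 counts, 19.4% passed higher and 12.6% lower at 12 h, and 19.7% and 14.4% at 24 h, which is the background for the proteins that build the bodies of these RNAs. Of 14 paraspeckle proteins, 5 rose and none fell at 12 h (among them RBM14 by 0.23, HNRNPH3 by 0.20, PSPC1 by 0.15 and TARDBP by 0.10 on the log2 scale), with a median over the list of 0.01. At 24 h SFPQ, a core paraspeckle protein, fell by 0.10 (edgeR adjusted p = 0.0243), and no other member passed. Of 12 nuclear speckle proteins, SRSF7, SRSF3 and SRSF1 rose at 12 h, by 0.27, 0.19 and 0.13, and SRSF5 fell by 0.22. At 24 h SRSF1 was higher by 0.10 and SRSF5 and SRSF6 were lower.

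NORAD was at 608, 586 and 581 CPM at 0 h, 552, 562 and 561 at 12 h, and 551, 572 and 580 at 24 h. The groups at 0 and 12 h did not overlap, and the difference was -0.08 ± 0.03 (edgeR adjusted p = 0.0517). That difference passed without 24 h replicate 3 (adjusted p = 0.0443), by DESeq2 (adjusted p = 0.0357), with no scaling factor (adjusted p = 0.0199) and with at least 10 counts in every library (adjusted p = 0.0327).

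Levels of different genes can be set side by side only per length. Per kilobase of all annotated exons joined, SNHG19 had the highest 0 h level, 156 CPM per kb over 614 bases, followed by RP1-276N6.2 with 134, NORAD with 110, MALAT1 with 74.4 and SNHG29 with 74.2. The last pair differed by less than the spread of MALAT1. The joined exons overstate the length of any one transcript: those of SNHG14 cover 122609 bases, which left it at 2.96 CPM per kb.

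In the comparison of 12 h with 0 h, 34 of the 112 lncRNAs passed an adjusted p of 0.05, 8 of them higher and 26 lower. Over all 19250 tested genes 18.7% passed (10.6% higher and 8.16% lower). Over tested genes with at least 9000 counts, 32.0% passed, 19.4% higher and 12.6% lower. Those genes share the count minimum of the 112 but were not matched to them in depth. None of the 112 also reached a fold change of 1.5, the size the study asked for, against 2.37% of all tested genes and 0.673% of those with at least 9000 counts. The median log2 fold change of the 112 was -0.07, against -0.01 over all tested genes.

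At 24 h against 0 h, 40 of the 112 passed, 12 higher and 28 lower, against 21.1% of all tested genes (11.6% higher and 9.48% lower) and 34.2% of those with at least 9000 counts (19.7% higher and 14.4% lower). The number higher was 6 without 24 h replicate 1, 7 without 0 h replicate 2, 8 without 24 h replicate 3, and 7 without 0 h replicate 1 and 24 h replicate 3 together. Only RP11-72O9.5 also reached a fold change of 1.5, where the backgrounds are 3.31% and 1.12%. The median was -0.05, against -0.01 over all tested genes. In a bulk sample, fewer cells holding an RNA and less of that RNA per cell cannot be told apart.

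At 24 h against 12 h, 9 of the 112 passed, 4 higher and 5 lower, against 6.08% of all tested genes (3.03% higher and 3.05% lower) and 10.9% of those with at least 9000 counts (5.15% higher and 5.79% lower). The count was 14 without 0 h replicate 1, with 9 higher and 5 lower. It was 7 higher and 2 lower without 12 h replicate 2, 7 and 3 without 24 h replicate 2, and 4 and 3 without 12 h replicate 1. None reached a fold change of 1.5, which 0.452% of all tested genes did.

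The share of the 112 that passed was 30.4% at 12 h and 35.7% at 24 h, near that of genes with at least 9000 counts, and more of the calls were lower. Of the calls among the 112, 76.5% at 12 h and 70.0% at 24 h were lower, whereas 39.3% and 42.2% of the calls among all genes with at least 9000 counts were. Among the 3594 tested lncRNAs with fewer counts, 76.5% and 75.5% of the calls were lower. The split depended on the count minimum: of the 53 lncRNAs with at least 18000 counts, 6 passed higher and 14 lower at 12 h, but 10 higher and 11 lower at 24 h. The difference in direction was not tested as a set.

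The libraries of the 2 times did not overlap for 52 of the 112 at 12 h against 0 h, 46 at 24 h against 0 h and 36 at 24 h against 12 h. Over all tested genes this held for 32.8%, 33.5% and 24.4%, and over those with at least 9000 counts for 46.4%, 46.2% and 34.2%.

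Both times were compared with the same 0 h libraries. A lncRNA passed at both times in 26 cases and in the same direction in 25 of them. The exception was ENSG00000258162, a lncRNA without a symbol in GENCODE v44. A test of any difference among the 3 times passed for 46 of the 112 (41.1%), against 25.1% of all tested genes and 41.8% of those with at least 9000 counts.

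**Figure D2:**
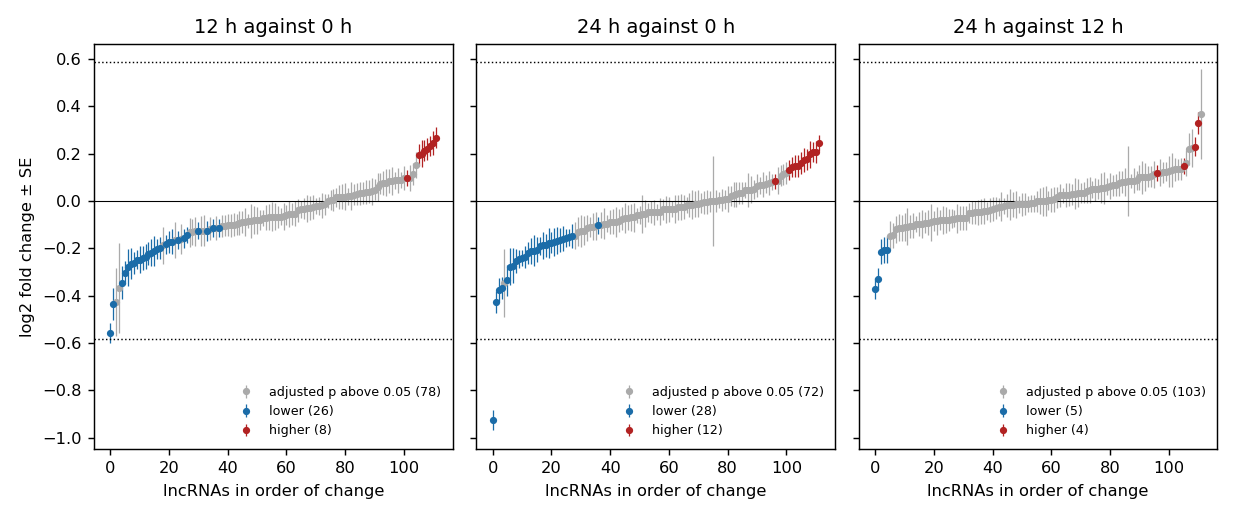
Log2 fold change with its standard error for the 112 lncRNAs, in order of size, for each of the 3 comparisons, with color for an adjusted p of at most 0.05 and dotted lines at a fold change of 1.5. At 12 h 26 were lower and 8 higher, at 24 h 28 and 12, and 1 lncRNA lies beyond the dotted line at 24 h.

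The snoRNA hosts were the group with the most rises. Of the 15 hosts, 5 rose and 1 fell at 12 h, and 5 rose and none fell at 24 h by edgeR's adjusted p. Among genes with at least 9000 counts 19.4% passed higher and 12.6% lower at 12 h, and 19.7% and 14.4% at 24 h. DESeq2 gave the same counts. Over the 15 the median log2 fold change was -0.02 at 12 h and 0.07 at 24 h. SNHG1, SNHG3, SNHG4 and SNHG16 passed at both times.

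SNHG16 was at 42.8, 47.4 and 45.2 CPM at 0 h, 52.0, 57.6 and 53.2 at 12 h, and 51.6, 51.3 and 50.0 at 24 h. All treated libraries were above all 0 h libraries. The log2 fold change was 0.27 ± 0.04 at 12 h (edgeR adjusted p = 2.23e-05) and 0.18 ± 0.04 at 24 h (adjusted p = 0.0034).

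SNHG4 was at 38.2, 38.6 and 37.3 CPM at 0 h, 46.0, 45.7 and 41.1 at 12 h, and 43.1, 42.3 and 46.3 at 24 h. No treated library reached down to the 0 h range. SNHG4 rose by 0.22 ± 0.05 at 12 h (edgeR adjusted p = 0.000647) and by 0.21 ± 0.05 at 24 h (adjusted p = 0.00109).

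SNHG1, the host of several box C/D snoRNAs, was at 41.9, 41.7 and 47.7 CPM at 0 h, 51.0, 55.1 and 49.4 at 12 h, and 51.0, 46.6 and 50.6 at 24 h. The 12 h libraries were above those at 0 h, and the 24 h libraries overlapped with them. Its rise was 0.24 ± 0.05 at 12 h (edgeR adjusted p = 0.000726) and 0.17 ± 0.05 at 24 h (adjusted p = 0.0141). The 24 h call was lost without 0 h replicate 1 or 2 or without 24 h replicate 1 or 3 (adjusted p = 0.0569 to 0.0799), and without 0 h replicate 1 and 24 h replicate 3 together (adjusted p = 0.181).

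SNHG3 rose in steps. It was at 129, 126 and 127 CPM at 0 h, at 134, 140 and 135 at 12 h, and at 155, 146 and 152 at 24 h, and no pair of groups overlapped. The change was 0.10 ± 0.03 at 12 h (edgeR adjusted p = 0.0382) and 0.25 ± 0.03 at 24 h (adjusted p = 6.85e-07), the largest rise of the 112 at that time, and the difference between 24 and 12 h was 0.15 ± 0.03 (adjusted p = 0.00479). The 12 h call was lost without 0 h replicate 2 or 3 or without 12 h replicate 2 or 3 (adjusted p = 0.0535 to 0.177), with no scaling factor (adjusted p = 0.068) and with no low-count filter (adjusted p = 0.0721).

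SNHG15 was higher at 12 h by 0.20 ± 0.06 (21.3, 21.2 and 21.5 CPM against 18.7, 17.9 and 19.2 at 0 h, edgeR adjusted p = 0.00994). Without 0 h replicate 2 the adjusted p was 0.0534, and the difference of 0.09 at 24 h did not pass. SNHG29, the most abundant host, was at 658, 674 and 659 CPM at 0 h, 660, 681 and 649 at 12 h, and 706, 698 and 705 at 24 h. It rose by 0.08 ± 0.03 at 24 h (adjusted p = 0.0467), a call lost without 0 h replicate 1 or 3, without 12 h replicate 3 and without any single 24 h library (adjusted p = 0.0519 to 0.114). That call was also lost without 0 h replicate 1 and 24 h replicate 3 together (adjusted p = 0.100), with either other low-count filter (adjusted p = 0.11 and 0.0515) and with only the 6 libraries compared (adjusted p = 0.053).

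SNHG32 was the host that fell. It was at 98.5, 111 and 94.8 CPM at 0 h, 77.4, 93.5 and 79.1 at 12 h, and 97.2, 96.2 and 99.0 at 24 h. It fell by 0.28 on the log2 scale at 12 h (SE 0.08, edgeR adjusted p = 0.0419), and at 24 h the difference was -0.06. The 12 h call was lost in 6 of 9 fits: when 0 h replicate 1, either of 12 h replicates 1 and 3, or any 24 h library was left out (adjusted p = 0.0588 to 0.123). It was also lost without 0 h replicate 1 and 24 h replicate 3 together (adjusted p = 0.181) and with only the 6 libraries compared (adjusted p = 0.132).

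DANCR was lower in every 12 h library (175, 175 and 169 CPM) than in every 24 h library (188, 185 and 190), with 177, 181 and 188 at 0 h. Only the difference between 24 and 12 h passed, at 0.12 ± 0.03 (edgeR adjusted p = 0.0222), and it was lost with any of 12 h replicate 3 and 24 h replicates 1 and 3 left out (adjusted p = 0.0649 to 0.130). The difference of -0.07 at 12 h against 0 h passed without 0 h replicate 1 and 24 h replicate 3 together (adjusted p = 0.0445).

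The other 7 hosts passed in no comparison. GAS5, named for its rise in growth-arrested cells, was at 238, 244 and 254 CPM at 0 h, 252, 270 and 260 at 12 h, and 269, 255 and 253 at 24 h, a difference of 0.09 ± 0.03 at 12 h (edgeR adjusted p = 0.0642). It passed at 12 h without 0 h replicate 3 or 12 h replicate 1 (adjusted p = 0.0284 and 0.0359) and at 24 h without 0 h replicate 3 (adjusted p = 0.0428). SNHG14 is a very long transcript that runs antisense to UBE3A. It was at 401, 344 and 342 CPM at 0 h and 367, 365 and 392 at 24 h, and passed at 24 h without 0 h replicate 1 (adjusted p = 0.013). Without that library its difference between 24 and 12 h passed too. That difference also passed with no low-count filter and with only the 6 libraries compared (lowest adjusted p of these fits = 0.0107).

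ZFAS1 and EPB41L4A-AS1 had differences between -0.10 and 0.07 from 0 h. SNHG6 was within 0.07 of its 0 h level. SNHG8 was at 142, 167 and 148 CPM at 12 h and SNHG19 at 79.7, 95.9 and 87.5, with differences from 0 h of -0.08 and -0.13. In both, 12 h replicate 2 was the highest library, as it was for 9 of the 15 hosts. Without it both were lower at 12 h (edgeR adjusted p = 0.00597 for SNHG8 and 0.00515 for SNHG19), and the class then had 4 rises and 3 falls at 12 h. Without 0 h replicate 2 it had 3 rises and 1 fall.

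At 24 h the hosts had 3 rises and no fall without 24 h replicate 1, without 24 h replicate 3, or without 0 h replicate 1 and 24 h replicate 3 together.

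**Figure D3:**
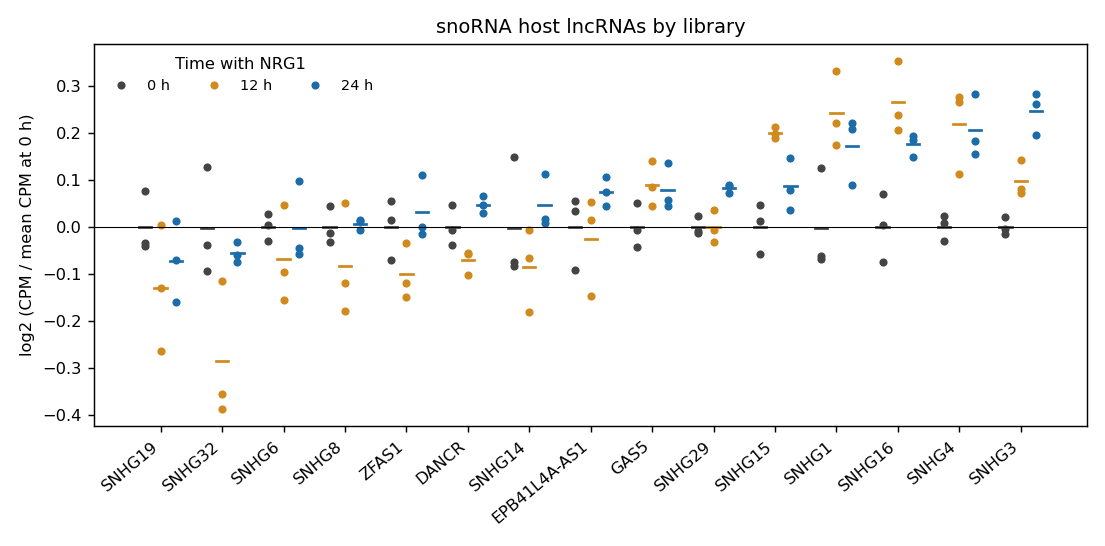
Level of the 15 snoRNA host lncRNAs in each library as the log2 ratio of its CPM to the 0 h mean, with a bar at the mean of each group and color for the time with NRG1; hosts are in order of their 24 h change. SNHG16, SNHG4 and SNHG3 have all 12 and 24 h libraries above the 0 h libraries, and the 12 h libraries of SNHG32 spread more widely than those of SNHG3.

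Of 14 proteins that bind or assemble box C/D and H/ACA snoRNAs, 10 rose and none fell at 12 h, and 8 rose and none fell at 24 h, with medians of 0.18 and 0.15 on the log2 scale. The share passing higher among genes with at least 9000 counts was 19.4% and 19.7%. NOP58 and NOP56, core proteins of the box C/D particle, rose by 0.29 and 0.28 at 12 h. DKC1, the pseudouridine synthase of the H/ACA particle, rose by 0.20, and RUVBL1, an assembly factor, by 0.24. The methyltransferase gene FBL had a difference of 0.09 at 12 h that did not pass (edgeR adjusted p = 0.124).

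Nonsense-mediated decay factors, which degrade the spliced RNA of many hosts, had medians of 0.01 at both times. Of 14 factors, UPF3A fell at 12 h by 0.14 and none rose, where 12.6% of genes with at least 9000 counts passed lower (14.4% at 24 h). At 24 h CASC3, RBM8A and SMG6 fell, by 0.12, 0.11 and 0.15, and none rose. The core factors UPF1 and UPF2 had differences between -0.01 and 0.06 that did not pass.

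The largest falls of the 112 at 24 h came from a stretch of chromosome 6 that holds 2 of them, 114 kb from the start of the first to the end of the second. RP11-72O9.5 (ENSG00000287656.1) lies at chr6:160369200-160386934 on the minus strand, within the span of SLC22A3 on the plus strand. RP1-276N6.2 (ENSG00000230234.1) lies at chr6:160272617-160276130 on the plus strand, within the span of SLC22A2 on the minus strand. Neither shares an exon base with the coding gene in GENCODE v44. SLC22A2 and SLC22A3 encode organic cation transporters.

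The sequence around the table's start of each is shown because they were the lncRNAs with the largest falls at 24 h. Each is 300 bases of GRCh38, 250 before the start and 50 from it on, printed along the strand of the lncRNA. Capitals mark an exact match to one of the words searched.
RP11-72O9.5: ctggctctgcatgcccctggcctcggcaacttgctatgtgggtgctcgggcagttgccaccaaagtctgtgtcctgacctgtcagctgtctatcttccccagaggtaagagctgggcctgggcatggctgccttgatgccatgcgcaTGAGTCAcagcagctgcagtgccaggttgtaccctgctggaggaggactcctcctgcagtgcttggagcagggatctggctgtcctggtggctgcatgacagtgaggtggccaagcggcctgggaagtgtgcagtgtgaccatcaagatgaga
RP1-276N6.2: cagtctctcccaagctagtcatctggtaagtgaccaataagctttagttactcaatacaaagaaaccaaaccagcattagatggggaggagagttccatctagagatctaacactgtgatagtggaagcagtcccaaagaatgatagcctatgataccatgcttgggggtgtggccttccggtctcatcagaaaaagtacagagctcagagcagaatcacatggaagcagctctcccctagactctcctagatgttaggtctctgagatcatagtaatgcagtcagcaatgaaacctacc
The windows are chr6:160386885-160387184 on the minus strand and chr6:160272367-160272666 on the plus strand, with 60.0% and 45.3% G and C. The words searched on both strands were CCGGAAGT (ETS), TGACTCA (AP-1), TGACGTCA (cyclic AMP response element) and CACGTG (E-box), and one word of the serum response factor. None of the words contains another. The first window held 1 AP-1 word, on the opposite strand, and the second held none of the words.

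RP11-72O9.5 was at 92.2, 88.1 and 94.3 CPM at 0 h, 65.3, 62.2 and 59.2 at 12 h, and 47.9, 45.9 and 50.7 at 24 h. No groups overlapped, and each later time was lower. It fell by 0.56 on the log2 scale at 12 h (SE 0.04, edgeR adjusted p = 1.06e-12) and by 0.93 at 24 h (SE 0.04, adjusted p = 6.35e-19). The fall from 12 to 24 h was also past the threshold (-0.37 ± 0.04, adjusted p = 1.91e-07). With 12 h replicate 1 left out the 12 h change was -0.59, just past a fold change of 1.5.

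RP1-276N6.2 was at 62.9, 60.8 and 64.5 CPM at 0 h, 59.5, 58.9 and 57.4 at 12 h, and 49.5, 48.4 and 42.1 at 24 h. The groups again did not overlap. The 12 h difference of -0.10 ± 0.05 did not pass (edgeR adjusted p = 0.137), the 24 h difference was -0.43 ± 0.05 (adjusted p = 6.98e-09), and the difference between 24 and 12 h was -0.33 ± 0.05 (adjusted p = 9.27e-06).

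The coding neighbours fell as well. SLC22A3 went from 270 ± 5.19 CPM at 0 h to 176 ± 2.09 at 12 h and 147 ± 6.86 at 24 h (mean ± SD, n = 3), a log2 fold change of -0.62 and then -0.88. SLC22A2 went from 23.2 ± 0.419 to 18.3 ± 0.850 and 14.6 ± 0.719 CPM, changes of -0.34 and -0.67. All 4 differences passed the test.

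Genes outside the 114 kb stretch, on either side of it, also fell. IGF2R (chr6:159969082-160113507), the receptor for insulin-like growth factor 2 and mannose 6-phosphate, changed by -0.65 at 12 h and -0.69 at 24 h. The pseudogene LPAL2 (chr6:160453428-160520269) changed by -0.77 and -1.18, and all of these passed. The antisense lncRNA AIRN, with 118 summed counts, changed by -1.55 and -1.96 and passed at both times. LPA had 64 summed counts and passed at neither time.

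SLC22A3 had 2.94 times the summed counts of RP11-72O9.5, and SLC22A2 had 0.336 times those of RP1-276N6.2. The strand setting of the counting is not given in the sources used here. Without strand, reads from unspliced RNA of the coding gene would be counted for the lncRNA inside it, and the part of such reads in these falls was not tested.

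**Figure D4:**
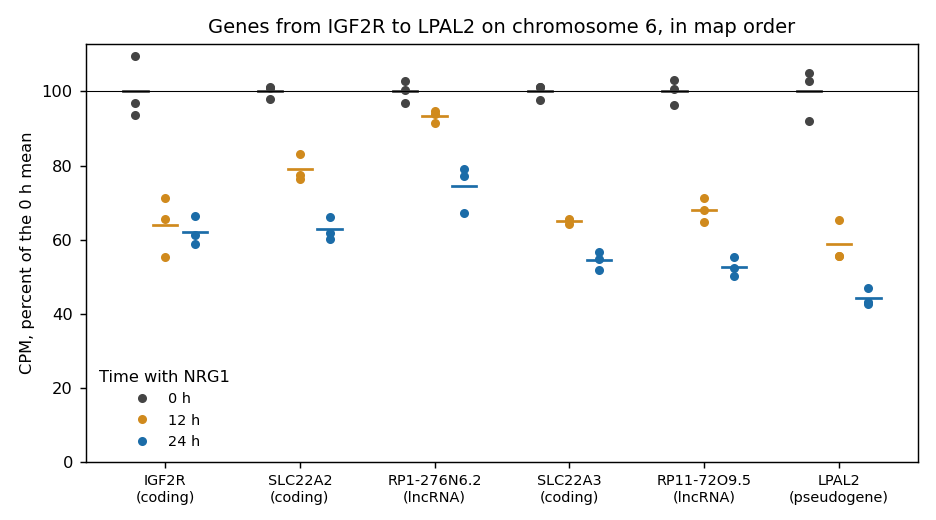
Level of 6 genes from IGF2R to LPAL2 on chromosome 6, in map order but not to scale, as a percent of each gene's 0 h mean CPM; points are libraries, bars are group means and color is the time with NRG1. All 24 h libraries of the 6 genes lie below all of their 0 h libraries, and RP1-276N6.2 is the gene with the highest 12 h libraries relative to 0 h; genes under 5 CPM at 0 h are not drawn.

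The prostate lncRNAs SCHLAP1 and DRAIC both fell at both times. SCHLAP1, which marks a subset of prostate cancers and has been described as an antagonist of the SWI/SNF complex, was at 32.6, 31.1 and 30.6 CPM at 0 h, 24.9, 26.1 and 25.4 at 12 h, and 24.5, 24.2 and 23.9 at 24 h. Every treated library was below every 0 h library. It fell by 0.30 at 12 h and by 0.38 at 24 h on the log2 scale (SE 0.05 each, edgeR adjusted p = 1.51e-05 and 2.67e-07).

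DRAIC was at 44.2, 40.2 and 43.0 CPM at 0 h, 34.7, 38.2 and 36.2 at 12 h, and 37.6, 34.3 and 36.3 at 24 h. The treated libraries were all below the 0 h range. The log2 fold changes were -0.22 ± 0.05 and -0.24 ± 0.05 (edgeR adjusted p = 0.000722 and 0.000303). Neither lncRNA overlaps a coding gene.

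PCAT1, a lncRNA of the 8q24 region that was first described in prostate cancer, went the other way. It was at 46.9, 46.6 and 47.5 CPM at 0 h, 53.9, 57.9 and 53.6 at 12 h, and 53.6, 49.5 and 52.8 at 24 h, and rose by 0.23 ± 0.04 at 12 h (edgeR adjusted p = 9.01e-05) and by 0.14 ± 0.04 at 24 h (adjusted p = 0.0114). The 24 h call was lost without 24 h replicate 1 (adjusted p = 0.0692) and without 0 h replicate 1 and 24 h replicate 3 together (adjusted p = 0.0657).

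NORAD, OIP5-AS1, HCG18 and LINC01133 were listed as widely expressed cytoplasmic or regulatory lncRNAs, called the widely expressed class here. Of these, only LINC01133 passed. It was at 31.3, 33.3 and 34.6 CPM at 0 h, 27.3, 29.8 and 27.3 at 12 h, and 30.8, 30.2 and 28.5 at 24 h. It changed by -0.23 ± 0.05 at 12 h (edgeR adjusted p = 0.00086) and by -0.15 ± 0.05 at 24 h (adjusted p = 0.0333). The 24 h call was lost without 0 h replicate 2 or 3 and without 24 h replicate 2 or 3 (adjusted p = 0.0636 to 0.200), by DESeq2 (adjusted p = 0.054) and without 0 h replicate 1 and 24 h replicate 3 together (adjusted p = 0.0594). OIP5-AS1, known as a binder of the microRNA miR-7, had differences of -0.07 and -0.02. HCG18 had 0.00 and 0.11 and passed at 24 h without 24 h replicate 1 (adjusted p = 0.0326).

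The remaining lncRNAs with the largest falls were of the zinc finger clusters of chromosome 19 or antisense transcripts. CTC-444N24.11 was at 24.9, 22.9 and 20.9 CPM at 0 h, 16.8, 15.8 and 18.3 at 12 h, and 17.0, 17.9 and 19.6 at 24 h, with no overlap between 0 h and either time. Its log2 fold changes were -0.44 ± 0.07 and -0.34 ± 0.07 (edgeR adjusted p = 8.48e-06 and 0.00026).

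ZNF667-AS1 was at 40.8, 40.3 and 38.1 CPM at 0 h, 33.4, 34.2 and 31.8 at 12 h, and 31.6, 29.6 and 31.3 at 24 h. It changed by -0.26 ± 0.05 and -0.37 ± 0.05 (edgeR adjusted p = 6.61e-05 and 1.67e-07). The zinc finger gene ZNF667, whose start is 815 bases away on the other strand, had differences of 0.04 and -0.02 that did not pass.

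GABPB1-AS1 fell at 12 h. It was at 29.7, 25.9 and 24.1 CPM at 0 h, 20.1, 20.8 and 21.9 at 12 h, and 24.8, 22.2 and 26.2 at 24 h, changes of -0.34 ± 0.07 (edgeR adjusted p = 0.000476) and -0.13 ± 0.07 (adjusted p = 0.21). TMEM161B-AS1 was at 25.5, 21.4 and 22.8 CPM at 0 h, 19.8, 18.6 and 19.6 at 12 h, and 18.99, 18.98 and 22.3 at 24 h. It changed by -0.27 ± 0.07 (adjusted p = 0.00341) and -0.21 ± 0.07 (adjusted p = 0.0191). Its 24 h call was lost without 24 h replicate 1 or 2 (adjusted p = 0.116 and 0.124) and without 0 h replicate 1, where the change was -0.13 (adjusted p = 0.175). The coding genes GABPB1, a subunit of an ETS-family factor, and TMEM161B share bases of their exons with these lncRNAs and passed at neither time.

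COLCA1, the eighth most abundant, was at 198, 188 and 199 CPM at 0 h, 169, 182 and 177 at 12 h, and 162, 162 and 170 at 24 h. Its changes were -0.14 ± 0.03 and -0.24 ± 0.03 (edgeR adjusted p = 0.00232 and 1.43e-06). LINC00665 did not pass at either time, with differences of 0.09 and 0.07; at 12 h it passed without 0 h replicate 2 (adjusted p = 0.032).

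The other rises were small. DHRS4-AS1 was at 41.2, 41.8 and 43.8 CPM at 0 h, 50.2, 49.6 and 47.0 at 12 h, and 46.6, 47.7 and 44.5 at 24 h, and rose by 0.21 ± 0.04 (edgeR adjusted p = 0.000376) and 0.13 ± 0.04 (adjusted p = 0.0266). The 24 h call was lost without 0 h replicate 1 or 2 and without 24 h replicate 1 or 2 (adjusted p = 0.0695 to 0.136). RP5-1061H20.4, named RAB4A-AS1 in GENCODE v44, was at 41.9, 40.5 and 38.4 CPM at 0 h and 47.2, 47.5 and 44.7 at 24 h, a rise of 0.21 ± 0.04 (adjusted p = 0.000489). PAXIP1-DT rose by 0.15 ± 0.04 at 24 h (adjusted p = 0.0144), a call lost without 0 h replicate 1, without 24 h replicate 1 (adjusted p = 0.0585 and 0.0591) and without 0 h replicate 1 and 24 h replicate 3 together (adjusted p = 0.081).

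ENSG00000258162 (chr12:81378042-81556637, plus strand) changed direction. It was at 39.1, 35.8 and 37.1 CPM at 0 h, 31.9, 32.6 and 35.0 at 12 h, and 41.5, 41.7 and 41.6 at 24 h, and no groups overlapped. The log2 fold change was -0.17 ± 0.05 at 12 h (edgeR adjusted p = 0.00715) and 0.16 ± 0.05 at 24 h (adjusted p = 0.0107). The difference between 24 and 12 h was 0.33 ± 0.05 (adjusted p = 7.03e-06). The 12 h call was lost without 0 h replicate 1 (adjusted p = 0.0653) or 12 h replicate 1 (adjusted p = 0.0739) and without 0 h replicate 1 and 24 h replicate 3 together (adjusted p = 0.0531), and the 24 h call without 0 h replicate 2 (adjusted p = 0.0703). The overlapping gene PPFIA2, with 3.63 times its counts, had differences of 0.00 and -0.01.

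LINC00662 was lower at 12 h and back at 24 h. It was at 54.7, 54.3 and 56.1 CPM at 0 h, 49.0, 49.5 and 49.5 at 12 h, and 57.6, 55.5 and 60.3 at 24 h. It differed by -0.16 ± 0.04 at 12 h (edgeR adjusted p = 0.0042) and by 0.23 ± 0.04 between 24 and 12 h (adjusted p = 0.000227).

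The 3 lncRNAs that were lower at 24 h than at 12 h outside chromosome 6 were LINC01128, RP11-20I20.4 and MNX1-AS1, the last of which the naming rule does not reach. LINC01128 was at 28.1, 30.2 and 27.1 CPM at 12 h and 24.7, 24.1 and 24.9 at 24 h, with 29.8, 28.5 and 29.6 at 0 h. It fell by 0.21 from 12 to 24 h (SE 0.05, edgeR adjusted p = 0.00739) and by 0.25 from 0 to 24 h (adjusted p = 0.000247). The first call was lost without 12 h replicate 2 (adjusted p = 0.105). RP11-20I20.4 was at 22.3, 21.99 and 21.0 CPM at 12 h and 18.8, 18.6 and 19.2 at 24 h, and MNX1-AS1 at 21.6, 20.6 and 21.0 and at 18.2, 17.7 and 18.9. Both changed by -0.21 from 12 to 24 h (adjusted p = 0.0196 and 0.0223). The first was lost without 12 h replicate 1 or 2 and without 24 h replicate 1 or 2 (adjusted p = 0.0581 to 0.105), the second without any single 12 h library and without 24 h replicate 1 or 2 (adjusted p = 0.0501 to 0.112).

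The class of microRNA hosts held 2 of the 112, MIR99AHG and MIR210HG. They are described although the naming rule does not reach them, and the choice was made after their values were seen. Their main mature microRNAs are shown because these are the products such hosts are known for; poly(A)-selected libraries do not measure them. Capitals mark the seed, bases 2 to 8 (RefSeq, GRCh38.p14).
hsa-miR-99a-5p: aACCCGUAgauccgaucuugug
hsa-let-7c-5p: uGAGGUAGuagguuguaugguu
hsa-miR-125b-5p: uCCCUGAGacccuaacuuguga
hsa-miR-210-3p: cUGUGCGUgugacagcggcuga
No seed is shared among the 4. The first 3 lie in the span of MIR99AHG, at chr21:16539101-16539122, chr21:16539838-16539859 and chr21:16590253-16590274 on the plus strand, and miR-210-3p lies in MIR210HG at chr11:568112-568133 on the minus strand.

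MIR99AHG was at 62.0, 44.7 and 45.3 CPM at 0 h, 37.0, 37.1 and 39.0 at 12 h, and 37.7, 37.8 and 44.2 at 24 h. Its 0 h replicate 1 stood above the other two, and no treated library reached the 0 h range. The differences of -0.43 ± 0.14 and -0.35 ± 0.14 did not pass (edgeR adjusted p = 0.0968 and 0.161). Without 0 h replicate 1 both passed (adjusted p = 0.000635 and 0.0209), as they did without 0 h replicate 1 and 24 h replicate 3 together (adjusted p = 6.11e-05 and 0.000261), and DESeq2 called the 12 h difference (adjusted p = 0.026).

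MIR210HG, whose microRNA is known as a hypoxia-induced one, was at 30.7, 29.6 and 30.9 CPM at 0 h, 24.4, 28.0 and 29.0 at 12 h, and 28.9, 23.9 and 22.8 at 24 h. It changed by -0.27 ± 0.08 at 24 h (edgeR adjusted p = 0.0143), a call lost without 0 h replicate 1 or 3 and without 24 h replicate 2 or 3 (adjusted p = 0.0545 to 0.0837). It was also lost with a replicate block (adjusted p = 0.0513) and without 0 h replicate 1 and 24 h replicate 3 together (adjusted p = 0.118). Without 24 h replicate 1 the 12 h difference and the difference between 24 and 12 h passed too (adjusted p = 0.0381 and 0.0452).

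Many of the abundant lncRNAs lie on top of a coding gene. By the gene spans of the table, 63 of the 112 overlapped one on either strand and 49 overlapped none. By the exons of GENCODE v44, 51 shared exon bases with one, 49 of the 63 and 2 of those without an overlap of spans. In 28 cases an overlapping coding gene had more counts than the lncRNA. A coding gene started within 5 kb on the other strand for 56. All 112 were found in GENCODE v44, and 78 had the coordinates of the table there.

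Calls occurred with and without an overlapping coding gene. Among the 63 that overlapped a coding gene, 17 passed at 12 h (5 higher, 12 lower) and 20 at 24 h (8 higher, 12 lower). Among the 49 that overlapped none, 17 passed at 12 h (3 higher, 14 lower) and 20 at 24 h (4 higher, 16 lower). More passed lower than higher in both, with median log2 fold changes of -0.09 and -0.07 without overlap and -0.06 and -0.03 with it. The difference between the groups was not tested.

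The lncRNAs and their coding neighbours, overlapping or head to head, made 103 tested pairs with 84 of the lncRNAs. The lncRNA passed in 28 of them at 12 h and 32 at 24 h, and the coding gene passed too in 6 and 9 (21.4% and 28.1%). Where the lncRNA did not pass, the coding gene passed in 15 of 75 pairs at 12 h and in 12 of 71 (16.9%) at 24 h. Of all tested genes 18.7% and 21.1% passed, and of all coding genes with at least 9000 counts 32.0% and 34.2%. The coding genes of the pairs had no such minimum, and some had few summed counts (CD68 101, C10orf95 182), so the last shares are of an unlike set. At 24 h both moved the same way in 6 of the 9 pairs and opposite ways in 3. The same-direction pairs were RP11-72O9.5 with SLC22A3, RP1-276N6.2 with SLC22A2, SNHG3 with RCC1, PCAT1 with LRATD2, BAIAP2-DT with BAIAP2 and DNAJC3-DT with DNAJC3. The opposite pairs were GATA2-AS1 with GATA2, NBR2 with BRCA1 and CTD-2336O2.1 with CLN8. Of these lncRNAs, BAIAP2-DT, DNAJC3-DT, GATA2-AS1, NBR2 and CTD-2336O2.1 are outside the naming rule and were picked after their values were seen.

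GATA2-AS1 overlaps GATA2, a zinc finger transcription factor, and shares 78 exon bases with it. The RefSeq window of GATA2-AS1 (chr3:128488953-128489252, plus strand, GRCh38.p14) is shown because this pair was called in opposite directions at both times, with a cyclic AMP response element word in capitals. NBR2 with BRCA1 was also called in opposite directions at both times, and the RefSeq window of NBR2 held none of the words searched. A link between the word and the directions was not tested.
GATA2-AS1: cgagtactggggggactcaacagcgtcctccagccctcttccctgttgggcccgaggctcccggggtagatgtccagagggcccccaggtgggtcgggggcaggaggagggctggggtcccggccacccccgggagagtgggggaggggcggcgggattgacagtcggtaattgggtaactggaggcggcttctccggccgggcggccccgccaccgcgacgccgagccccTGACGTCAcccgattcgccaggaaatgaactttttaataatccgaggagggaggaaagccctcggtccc
Of the 65 RefSeq windows found for the 112 lncRNAs, 2 held this word (3.08%), against 1.98% of 27305 windows. The ETS word was in 7.69% against 4.44%, the E-box in 7.69% against 7.43%, the AP-1 word in 1.54% against 4.92%, and the serum response factor word in none of the 65 and in 10 of 27305.

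GATA2-AS1 was at 85.1, 83.4 and 80.7 CPM at 0 h, 70.5, 71.6 and 67.8 at 12 h, and 66.8, 72.1 and 71.3 at 24 h. All treated libraries were below all 0 h libraries. It fell by 0.25 at both times (edgeR adjusted p = 7.94e-06 and 7.09e-06), while GATA2 rose by 0.29 at 12 h and by 0.24 at 24 h (adjusted p = 6.69e-09 and 2.78e-07). GATA2 had 4.41 times the counts of GATA2-AS1.

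NBR2, which is transcribed from the promoter region of BRCA1 in the other direction, was at 28.8, 31.1 and 31.8 CPM at 0 h, 24.8, 26.8 and 26.0 at 12 h, and 26.7, 27.8 and 27.1 at 24 h. NBR2 changed by -0.24 ± 0.05 and -0.17 ± 0.05 (edgeR adjusted p = 0.000582 and 0.0155) and BRCA1 by 0.17 at both times (adjusted p = 0.0318 and 0.0276). The 24 h call of NBR2 was lost without 0 h replicate 2 or 3 or 24 h replicate 1 (adjusted p = 0.0554 to 0.109). That of BRCA1 was lost with any of 0 h replicate 2 and 24 h replicates 1 and 3 left out (adjusted p = 0.115 to 0.141) and without 0 h replicate 1 and 24 h replicate 3 together (adjusted p = 0.156). Its 12 h call was lost with any of 0 h replicate 2 and 12 h replicates 1 and 3 left out (adjusted p = 0.0813 to 0.155) and with no scaling factor (adjusted p = 0.0518).

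CTD-2336O2.1 changed by -0.19 ± 0.05 at 24 h and CLN8 by 0.14 (edgeR adjusted p = 0.0044 and 0.0093). The call of CLN8 was lost without 24 h replicate 2 (adjusted p = 0.0947) and without 0 h replicate 1 and 24 h replicate 3 together (adjusted p = 0.054).

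Of the head-to-head pairs without overlap, BAIAP2-DT changed by -0.16 and BAIAP2 by -0.34 at 24 h (edgeR adjusted p = 0.0022 and 3.36e-09), with starts 241 bases apart. The call of BAIAP2-DT was lost without 0 h replicate 1 and 24 h replicate 3 together (adjusted p = 0.0666). DNAJC3-DT changed by -0.18 and DNAJC3, a chaperone gene of the endoplasmic reticulum, by -0.30 (adjusted p = 0.0439 and 4.46e-07), with starts 184 bases apart. The call of DNAJC3-DT was lost in 6 of 9 fits with 1 library left out: without 0 h replicate 2 or 3, without 12 h replicate 3 and without any single 24 h library (adjusted p = 0.0576 to 0.179). It was also lost by DESeq2 (adjusted p = 0.0711) and without 0 h replicate 1 and 24 h replicate 3 together (adjusted p = 0.0654).

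SNHG3 starts 37 bases from RCC1 on the same strand and shares 242 exon bases with it. RCC1 rose by 0.18 at 12 h and by 0.12 at 24 h, the latter without a call when 0 h replicate 1 was left out (adjusted p = 0.117), alone or with 24 h replicate 3 (adjusted p = 0.154). LRATD2, head to head with PCAT1 and sharing 1409 exon bases with it, rose by 0.14 at 24 h (edgeR adjusted p = 0.00605). Its call was lost without 24 h replicate 3 (adjusted p = 0.0715), and without 0 h replicate 1 and 24 h replicate 3 together the change was 0.07 (adjusted p = 0.221). The part of shared reads in these pairs was not tested.

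**Figure D5:**
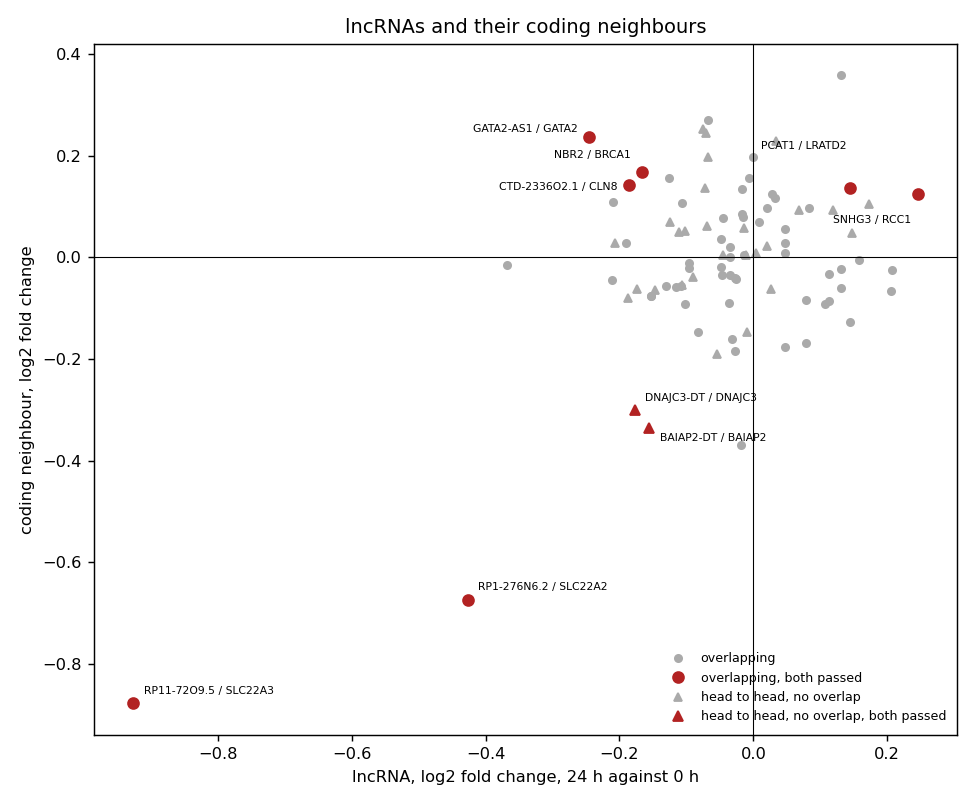
Log2 fold change at 24 h against 0 h of each lncRNA (x axis) and of its coding neighbour (y axis), for the 92 tested pairs whose coding gene had at least 1 CPM at 0 h; circles overlap, triangles are head to head without overlap, and red marks the 9 pairs in which both passed. The SLC22A3 and SLC22A2 pairs lie apart at the lower left, and the GATA2, BRCA1 and CLN8 pairs lie in the upper left, with the lncRNA down and the coding gene up.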

How the data were processed

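Bulk mRNA sequencing of LNCaP cells at 0, 12 and 24 h of NRG1 (3 libraries each) was analysed. The authors trimmed reads with Cutadapt, aligned them with STAR to GRCh38 with GENCODE v38 genes and counted them per gene with featureCounts; the deposited values are raw read counts. The strand setting and the treatment of reads with several alignments are not given in the sources used here. The study left out 1 LNCaP library at 0 h for quality; its captions give 3 replicates for the NRG1 course and fewer for another ligand, and all 9 libraries were used here. The table ends in 14 columns without a name, which are empty in every row.

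Counts were fitted with edgeR 4.0.16 (R 4.3.3; filterByExpr, TMM, robust quasi-likelihood F test, all 9 libraries in one fit), and p-values were adjusted by Benjamini-Hochberg over the 19250 tested genes. A call is an adjusted p of at most 0.05; calls with a fold change of at least 1.5 are given separately. Levels are CPM scaled by TMM, with a common variation between replicates beyond counting noise of 4.07% (coefficient of variation). The replicates may be parallel wells. Depth was 47016302 to 60985825 counts per library. The fit was tested on simulated data. Replicate numbers did not pair the libraries (correlations of same-numbered deviations from -0.04 to 0.03). No pair of replicates agreed within sampling noise (chi-square over degrees of freedom 3.15 to 9.45).

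The lncRNAs and gene lists were chosen with earlier results of these data known. Named were the 10 most abundant, the 6 largest rises and falls of each time against 0 h and the 4 of 24 h against 12 h (called, groups not overlapping), and the snoRNA host, nuclear body, prostate and widely expressed classes, with their coding neighbours. Alternatives were DESeq2 1.42.0, RLE size factors, no scaling, 2 low-count filters, only the 6 libraries compared, a replicate block, each library left out, another fold or count minimum, and overlap-free lncRNAs; leaving out 0 h replicate 1 and 24 h replicate 3 together was added after seeing the data.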

Additional observations from a re-analysis of the deposited data

Results flagged for a closer look

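For 9 of the 112 lncRNAs the effect at 24 h differed from that at 12 h by the direct edgeR test of 24 h against 12 h (adjusted p at most 0.05). The difference was positive for ENSG00000258162 (0.33), LINC00662 (0.23), SNHG3 (0.15) and DANCR (0.12) on the log2 scale. It was negative for RP11-72O9.5 (-0.37), RP1-276N6.2 (-0.33), LINC01128 (-0.21), RP11-20I20.4 (-0.21) and MNX1-AS1 (-0.21). The 12 h and 24 h libraries did not overlap for any of the 9. With 3 libraries per group, no group was large enough for the check for single outlying samples.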

How the results depend on the processing

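The number of lncRNAs called at an adjusted p alone was 34 at 12 h and 40 at 24 h, each against 0 h, and 9 between 24 and 12 h. With 1 library left out it ranged from 27 to 34, 27 to 39 and 7 to 14. Among the 49 lncRNAs that overlap no coding gene it was 17, 20 and 3, and with a minimum of 18000 counts it was 20 and 21 for the first 2 comparisons (6 higher and 14 lower, 10 higher and 11 lower). With only the 6 libraries compared, it was 14 for 24 h against 12 h. With a fold change of 1.5 as well, the counts were 0, 1 and 0; leaving out 1 library gave 0 to 1 at 12 h, a fold of 2 gave 0 at 24 h, the overlap-free lncRNAs gave 0 at 24 h, and no fold threshold gave 34, 40 and 9. Without 0 h replicate 1 and 24 h replicate 3 together the counts at an adjusted p alone were 33, 29 and 11. With a replicate block they were 35, 38 and 11, and the numbers did not pair the libraries. The protein lists and AIRN were not followed under the alternatives. Of 2958 single-gene values under an alternative, 2794 kept their side of the threshold, 115 lost the call and 49 gained one. Of the 2794, 70 changed sign without a call in either fit, and no called value changed sign. The strand of the counting and the absence of unstimulated libraries at 12 and 24 h could not be varied. The medians of all genes moved by less than 0.1 under every scaling.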
